A study of Mus musculus with 12 samples.

Results

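The accessible chromatin of 10 genes of the BCL2 family was examined in a master list of ATAC-seq peaks from mouse blood cells. ATAC-seq uses a transposase that inserts adapters into exposed DNA, so a peak marks a stretch of open chromatin. The members were chosen by name, as the peaks whose nearest promoter HOMER assigned to Bcl2, Bcl2l1, Mcl1, Bcl2a1a, Bax, Bak1, Bcl2l11, Bid, Bbc3 or Pmaip1. They took 93 of the 84243 peaks in the list, and all 10 of these genes were among the 19040 gene names it holds. The list was built from 12 samples of wild-type C57BL/6 mice aged 8 to 12 weeks, with 2 samples each of hematopoietic stem cells (HSCs), megakaryocyte progenitors (MkPs), erythroid progenitors (EPs), granulocyte/macrophages (GMs) and B cells from bone marrow, and of T cells from thymus. Since these samples were pooled, the list has 0 columns for single samples and no record of the cells that gave a peak. A count of peaks therefore has no error between replicates and no known depth behind it, a difference between cell types could not be examined, and the labelled cell types could not be checked against their markers. Counts of members are read against the same counts over all 20963 protein-coding genes with a RefSeq Select transcript, and no test was made.

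The BCL2 family decides whether the outer membrane of the mitochondrion is opened during intrinsic apoptosis. Anti-apoptotic members (Bcl2, Bcl2l1, Mcl1 and Bcl2a1a) bind and hold the pro-apoptotic members. The effectors Bax and Bak1 form the pores through which cytochrome c leaves, and the BH3-only proteins Bcl2l11 (BIM), Bid, Bbc3 (PUMA) and Pmaip1 (NOXA) sense stress and either activate the effectors or neutralise the anti-apoptotic members. Blood cells depend on this balance, and Mcl1 in particular is known to be needed for the survival of HSCs.

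The promoters of 6 members are printed to show how they differed in sequence, since every member had a promoter peak. Each line gives the 110 bases just upstream of the RefSeq transcription start site (TSS) nearest to the promoter peak, 5′ to 3′ on the strand of the gene, from the RefSeq sequence of GRCm38.p6 (mm10). All lie inside a peak and hold 0 bases of curated exons. Capitals mark matches on either strand to the strings GGGCGG (SP/KLF), CCGGAAG (ETS, long form), GAGGAAGT (PU.1), CGCATGCG (NRF1), CACGTG (MYC), TGANTCA (AP-1), GTAAACA (FOXO) and GGGNNTTCC (NF-kB).
Bcl2 chr1:106714291-106714400 (-): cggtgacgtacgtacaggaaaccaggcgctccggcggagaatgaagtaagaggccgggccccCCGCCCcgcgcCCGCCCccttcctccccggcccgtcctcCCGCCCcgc
Mcl1 chr3:95658611-95658720 (+): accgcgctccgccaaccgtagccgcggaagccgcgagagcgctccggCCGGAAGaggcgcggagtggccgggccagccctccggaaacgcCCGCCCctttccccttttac
Bcl2a1a chr9:88956810-88956919 (+): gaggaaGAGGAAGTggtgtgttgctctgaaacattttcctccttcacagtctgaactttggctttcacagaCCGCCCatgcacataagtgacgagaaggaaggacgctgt
Bax chr7:45466899-45467008 (-): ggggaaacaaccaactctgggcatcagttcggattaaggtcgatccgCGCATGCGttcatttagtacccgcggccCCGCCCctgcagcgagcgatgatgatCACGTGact
Bak1 chr17:27028628-27028737 (-): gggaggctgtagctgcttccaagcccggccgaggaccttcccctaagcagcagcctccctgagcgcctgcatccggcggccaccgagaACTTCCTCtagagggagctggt
Bcl2l11 chr2:128125928-128126037 (+): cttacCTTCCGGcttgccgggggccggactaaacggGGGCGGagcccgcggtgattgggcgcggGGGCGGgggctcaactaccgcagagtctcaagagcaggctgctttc

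The distal stretches come from 5 peaks that were chosen after their matches were known, to show elements more than 500 bp from the TSS. Each line gives 150 bases inside the peak on the plus strand, and capitals mark the string AGATAA of GATA factors, GAGGAAGT (PU.1), TGANTCA (AP-1) or the p53 half-site, on either strand. All 5 lie outside curated exons.
Bcl2 chr1:106666389-106666538 (+): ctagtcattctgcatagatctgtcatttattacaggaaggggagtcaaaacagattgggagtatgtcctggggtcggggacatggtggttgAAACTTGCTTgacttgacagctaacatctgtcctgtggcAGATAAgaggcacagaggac
Bcl2l1 chr2:152817719-152817868 (+): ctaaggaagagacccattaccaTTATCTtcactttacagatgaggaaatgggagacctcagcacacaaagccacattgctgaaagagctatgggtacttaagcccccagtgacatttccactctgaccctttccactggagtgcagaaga
Mcl1 chr3:95650736-95650885 (+): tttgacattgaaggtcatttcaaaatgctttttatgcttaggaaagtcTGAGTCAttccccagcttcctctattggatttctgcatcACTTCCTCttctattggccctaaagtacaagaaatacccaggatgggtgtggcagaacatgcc
Bcl2l11 chr2:128190318-128190467 (+): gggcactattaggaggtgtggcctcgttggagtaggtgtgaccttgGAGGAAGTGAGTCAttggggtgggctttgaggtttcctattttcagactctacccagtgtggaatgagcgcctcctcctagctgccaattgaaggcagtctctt
Bbc3 chr7:16308628-16308777 (+): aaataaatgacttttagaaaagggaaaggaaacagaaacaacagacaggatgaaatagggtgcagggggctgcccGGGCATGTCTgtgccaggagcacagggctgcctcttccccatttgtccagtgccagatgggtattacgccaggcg
The Bcl2 and Bcl2l1 stretches are intronic and were centred 47826 and 10695 bp downstream of the TSS. The Mcl1 stretch is intergenic, 7910 bp upstream, with an AP-1 and a PU.1 string in the same stretch. In the Bcl2l11 stretch, 62818 bp downstream and within an ORR1B1 long terminal repeat, the PU.1 and AP-1 strings overlap. The Bbc3 stretch, from the peak 851 bp upstream, holds the p53 half-site; p53 is a well-known activator of this gene.

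Each of the 10 members had a promoter peak, defined as 1 centred at most 500 bp from the TSS that HOMER reports. Over all protein-coding genes, 54.9% had a promoter peak named for them (11514 of 20963). By the position of the gene's own curated TSSs, whatever gene the list names, 10 of 10 members had a peak within 500 bp, against 60.4% of all protein-coding genes. At the 500 bp cut, the promoters of anti-apoptotic and of pro-apoptotic members were thus alike in holding a peak, with 4 of 4 and 6 of 6. With a cut of 100 bp, 8 of the 10 members had a promoter peak. The number was 9 from 1000 bp upstream to 100 bp downstream, and also 9 by the peaks HOMER annotates as promoter. The share of all genes under these other definitions was not computed.

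Bcl2l1 and Bcl2l11 each had 2 promoter peaks, and 3.68% of all protein-coding genes had at least 2. Bcl2l1 encodes BCL-XL and its 2 promoter peaks were centred 46 and 279 bp downstream of different start sites, at 152830422 to 152830920 and 152831200 to 152831698 of chromosome 2. Those of Bcl2l11, the gene of the BH3-only protein BIM, were centred 208 and 98 bp upstream of different start sites, at 128125581 to 128126079 and 128127228 to 128127726 of chromosome 2. Counted over the curated RefSeq start sites themselves, a peak was centred within 500 bp of 2 of 3 sites of Bcl2l1, 2 of 2 of Bcl2l11 and 3 of 3 of Bbc3. In Bbc3, the peak that HOMER places 581 bp downstream, counted here as distal, is centred near 2 of these sites. The other 7 members have 1 curated start site each.

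The promoter peaks of the other 8 members were centred 5 to 178 bp from the TSS. Among the anti-apoptotic genes, the Mcl1 peak (chromosome 3, 95658508 to 95659006) was centred 36 bp downstream of the TSS and the Bcl2a1a peak (chromosome 9, 88956644 to 88957142) 27 bp upstream of it. The Bcl2 peak (chromosome 1, 106713914 to 106714412) was centred 127 bp downstream, where HOMER annotates the 5′ untranslated region. For the effectors, the centre was 73 bp downstream in Bax (chromosome 7, 45466576 to 45467074) and 34 bp downstream in Bak1 (chromosome 17, 27028344 to 27028842). The BH3-only genes had theirs at 5 bp upstream in Bid (chromosome 6, 120916580 to 120917078), 178 bp upstream in Bbc3 (chromosome 7, 16309156 to 16309654) and 76 bp upstream in Pmaip1. The median distance over all promoter peaks of the list was 67 bp.

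Promoter peaks were the smaller part of the named peaks in both classes. Of the 35 peaks of anti-apoptotic members, 5 were promoter peaks (14.3%, 95% Wilson interval 6.26 to 29.4%), and of the 58 peaks of pro-apoptotic members 7 were (12.1%, 5.97 to 22.9%). The intervals cover counting error only and they overlap, and both include the 15.6% of the whole list. They treat peaks as independent, although 27 of the 58 were named for Bcl2l11, so they cannot show that the classes are alike. Each member had 1 or 2 promoter peaks, so the share mainly follows the number of distal peaks named for a gene. The remaining 30 and 51 peaks were distal, with a centre more than 500 bp from the TSS.

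Distal peaks were unevenly spread over the members. Bcl2l11 had the most, with 25, and 0.639% of all protein-coding genes had as many. Bcl2 followed with 12 (4.57% of genes had as many), and Bcl2l1 and Bid had 9 each (8.30%). Mcl1 and Pmaip1 had 8 each (10.1%) and Bbc3 had 6 (15.7%). Few distal peaks were named for Bak1 (2), Bax (1) and Bcl2a1a (1), and 47.2% of genes had as many as Bak1 and 65.7% as many as Bax or Bcl2a1a. Of the 10 members, 7 had at least 6 distal peaks, against 15.7% of protein-coding genes. This cut equals the count of Bbc3, which had 4 distal peaks when the promoter was widened to 1000 bp. The median over the members was 8, against 1 over all protein-coding genes and 2 over the 11514 genes with a promoter peak.

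**Figure D1:**
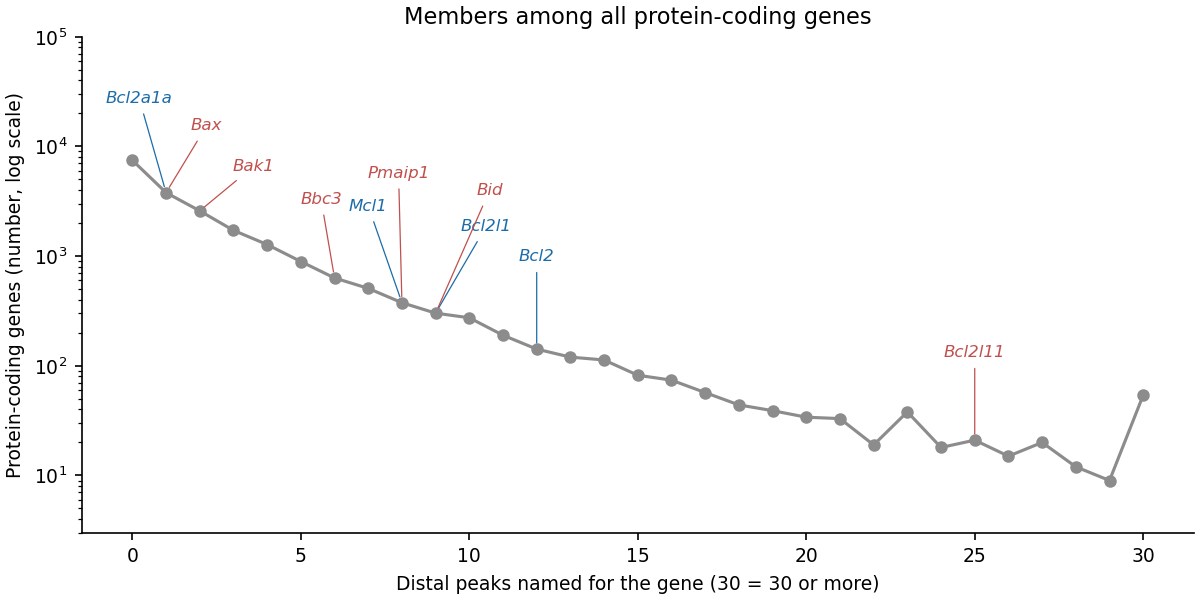
Number of protein-coding genes (y axis, log scale) against the number of distal peaks named for a gene (x axis, the last point holding 30 or more), with the members marked in blue (anti-apoptotic) and red (pro-apoptotic). The commonest value is 0, with 7476 genes. Bax and Bcl2a1a sit at 1 distal peak, Bak1 at 2 and Bcl2l11 at 25.

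By the gene HOMER named, counts within the pro-apoptotic class differed between effectors and BH3-only genes. The effectors Bax and Bak1 had 3 distal peaks together. The 4 BH3-only genes had 48, with 6 to 25 per gene and the 25 at Bcl2l11. This split did not hold within 50 kb of the RefSeq Select TSS, whatever gene was named. There Bak1 had 16 distal peaks and Bax 6, and Bcl2l11 had 13, Bid 12, Bbc3 10 and Pmaip1 7. Pooled per 100 kb of territory (defined below), the order by name was reversed, with 7.06 in the effectors and 5.64 in the BH3-only genes. These territories were 42.5 and 851 kb, and Bbc3 alone had 11.9 per 100 kb. The anti-apoptotic genes had a median of 8.5 distal peaks (range 1 to 12), the BH3-only genes a median of 8.5 (6 to 25), and all pro-apoptotic genes a median of 7 (1 to 25). Without Bcl2l11, the total of the pro-apoptotic class was 26 in place of 51.

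The order of the classes turned with the way a peak was tied to a gene. By the promoter HOMER named, anti-apoptotic members had 30 distal peaks and pro-apoptotic members 51. Counted instead by the position of the centre inside the gene body, anti-apoptotic members had 44 and pro-apoptotic members 17. Taking either criterion gave 53 and 51. The nearest RefSeq Select TSS gave 51 and 77, and the basal plus extension rule, which lets a peak belong to more than 1 gene, gave 80 and 126. The classes hold 4 and 6 genes, so totals are not per gene, and the medians per gene were 8.5 and 7 by the name, 8.5 and 2.5 in the gene body, 8.5 and 8.5 by the nearest RefSeq Select TSS, and 15 and 11.5 under the basal plus extension rule.

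**Figure D2:**
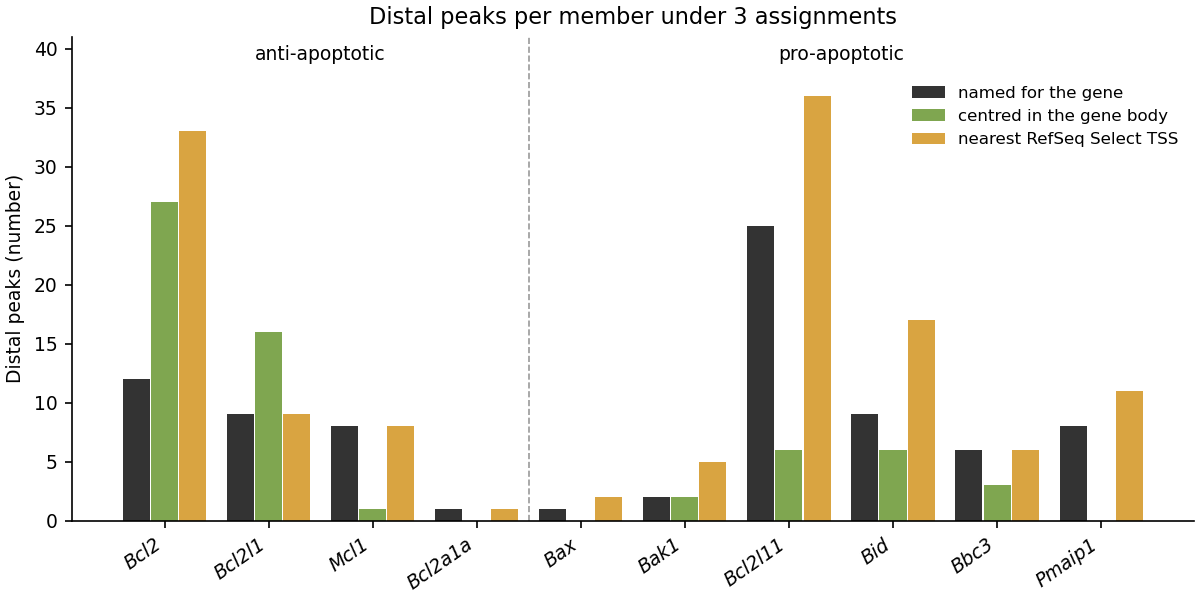
Distal peaks (number, y axis) of each member under 3 ways of assigning a peak: by the gene HOMER named (dark), by a centre in the gene body (green) and by the nearest RefSeq Select TSS (yellow). Bcl2 goes from 12 to 27 and 33, and Bcl2l11 from 25 to 6 and 36.

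Members moved both ways between the named and the gene body counts. Bcl2 went from 12 to 27 and Bcl2l1 from 9 to 16, and Bcl2l11 went from 25 to 6, Pmaip1 from 8 to 0 and Mcl1 from 8 to 1. The Bcl2 gene body on chromosome 1 (106538176 to 106714290, minus strand) is 176115 bp long and held 28 peaks, of which 12 were named for Bcl2. The other 16 lay at 106544811 to 106629152, in the intron and 85387 to 169230 bp from the Bcl2 TSS. HOMER named them for Mir3473f, a microRNA gene at 106546496 to 106546631 within the same intron, from which they were 1571 to 82272 bp away. By the nearest RefSeq Select TSS, 21 distal peaks named for Mir3473f went to Bcl2, which then had 33, a number that 0.477% of protein-coding genes reached.

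Bcl2l1 showed the same on a smaller scale. Its gene body on chromosome 2 (152758732 to 152833803, minus strand) is 75072 bp long and held 18 peaks, and 11 of them were named for Bcl2l1. The other 7, of which 6 were intronic, were 41440 to 64067 bp from the Bcl2l1 TSS and were named for Cox4i2, whose own TSS lies beyond the 3′ end of Bcl2l1. For Mcl1, in contrast, 1 distal peak lay in the short gene body of 6236 bp and 7 lay outside it.

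**Figure D3:**
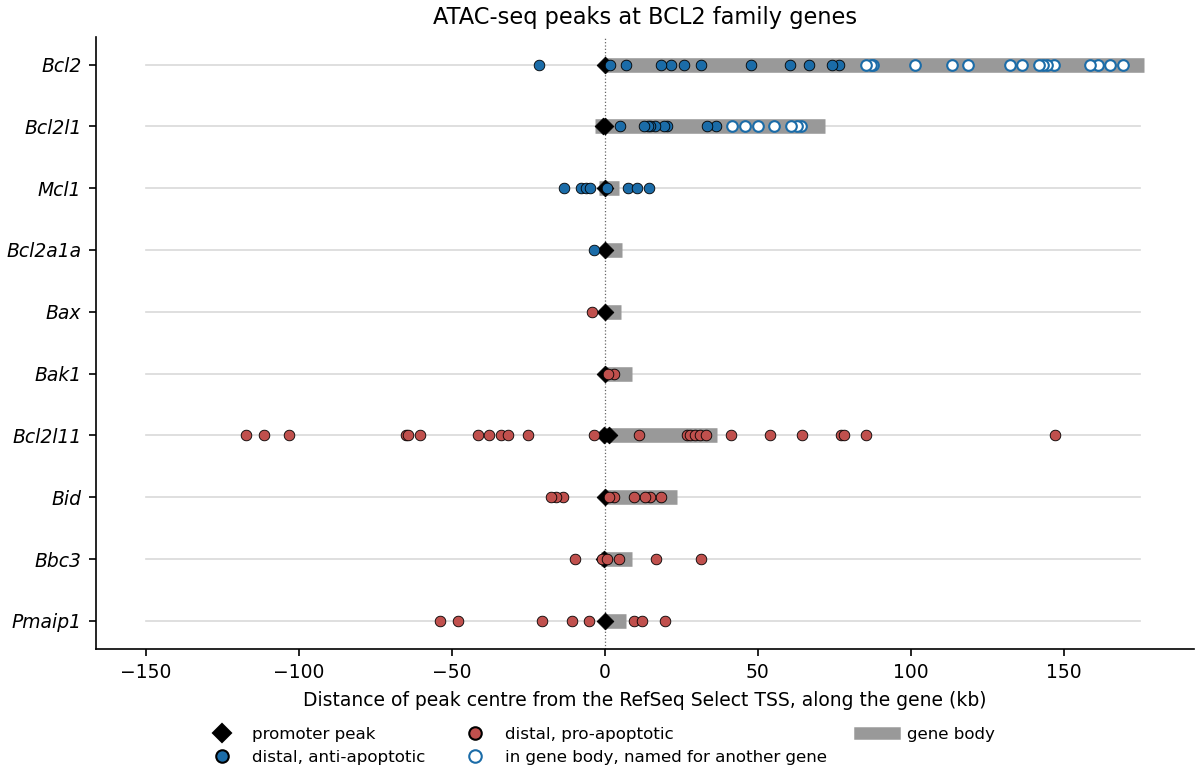
Peaks of each member by the distance of the centre from the RefSeq Select TSS, in kb along the direction of transcription (x axis), with gene bodies as grey bars. Black diamonds are promoter peaks, filled circles are distal peaks (blue anti-apoptotic, red pro-apoptotic) and open circles are peaks in the gene body that were named for another gene. The 16 open circles of Bcl2 and 7 of Bcl2l1 fill the far part of each gene body, and the peaks of Bcl2l11 lie on both sides of the gene.

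Among the anti-apoptotic genes, Bcl2 had 11 of its 12 named distal peaks downstream of the TSS in its own body, from 1788 bp (an exon) out to 76400 bp. The remaining peak was 21487 bp upstream, in an intron of Kdsr. All 9 distal peaks of Bcl2l1 were downstream and in its intron, 2568 to 34071 bp from the TSS. The Mcl1 peaks stood on both sides, with 4 upstream and 4 downstream between 655 and 14308 bp, and its median of 7746 bp was the shortest of the 7 members with at least 6 distal peaks after that of Bbc3, at 7114 bp. Bcl2a1a, an NF-kB target gene in lymphoid and myeloid cells, had its 1 distal peak 3537 bp upstream.

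The effector genes had short maps. The distal peak of Bax was 4174 bp upstream of its TSS, on a B3A repeat of the SINE class. Those of Bak1 were 1031 and 3084 bp downstream, within its own gene, although HOMER annotated the second by an intron of a transcript of the neighbour Ggnbp1. By the nearest RefSeq Select TSS, Bak1 gained 3 peaks named for Ggnbp1 and Bax gained 1 named for Tulp2.

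Bcl2l11 had the widest map. Of its 25 distal peaks, 12 lay upstream, 3434 to 117135 bp from the TSS, and all 12 were in introns of Acoxl, an acyl-CoA oxidase-like gene whose 3′ end overlaps the Bcl2l11 start site on the same strand. Another 6 lay in its own body, and 7 were intergenic beyond its 3′ end, the farthest at 145405 bp. In the last of these, at 128272731 to 128273229 of chromosome 2, the short ETS string AGGAAG matched 19 times on the minus strand. The matches lay within 94 bp at the edge of the peak, and 15 of the 18 steps between neighbours were 4 bp, so most overlap each other in 1 tandem repeat and are not separate elements. The nearest RefSeq Select TSS added 11 peaks that HOMER had named for Gm14005, giving 36, which 0.377% of protein-coding genes reached.

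The other BH3-only genes had narrower maps. Bid, which is cleaved by caspase-8 to link death receptors to the mitochondrion, had 6 distal peaks in its own body and 3 upstream at the 3′ end of Mical3, 13837 to 17622 bp away. It gained 8 peaks by the nearest RefSeq Select TSS, 7 of them named for LOC215458 and 1 for Gm4651. Bbc3 had its 6 distal peaks between 581 and 31400 bp, and the 2 farthest lay at the end and in an intron of Sae1. Pmaip1, whose gene lies on chromosome 18 at 66458604 to 66465558 and whose sequence was not examined, had 5 distal peaks upstream and 3 downstream, all intergenic, at 5182 to 53909 bp.

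The distances of distal peaks in the 2 classes depended on Bcl2l11. The median was 14191 bp for the anti-apoptotic genes, against 25145 bp for the pro-apoptotic genes and 22261 bp for all distal peaks of the list. Without Bcl2l11, left out after its values were seen, the median of the other 26 pro-apoptotic peaks was 11424 bp, below that of the anti-apoptotic genes, and without Bcl2 the anti-apoptotic median was 11356 bp. This does not count the 16 and 7 peaks in the bodies of Bcl2 and Bcl2l1 named for other genes. Peaks more than 50 kb away numbered 4 of 30 in the anti-apoptotic class, all of Bcl2, and 13 of 51 in the pro-apoptotic class, 12 of Bcl2l11 and 1 of Pmaip1. The share of such peaks over the whole list was not computed, so these counts stand without a background. Upstream of the TSS lay 6 of 30 anti-apoptotic and 23 of 51 pro-apoptotic distal peaks (5 of 18 without Bcl2 and 11 of 26 without Bcl2l11), against 41.7% in the list. Introns held 20 of 30 and 28 of 51 of the peaks, against 48.0% of all distal peaks, and intergenic sequence 8 and 17, against 44.6%. Peaks on annotated repeats were 2 and 6, or 9.88% of the members' distal peaks, against 17.9% of all distal peaks. The median distance from a distal peak to the nearest other peak of the list was 2678 bp for the anti-apoptotic and 3226 bp for the pro-apoptotic class, against 4551 bp in the whole list.

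Long, isolated genes can gather more peaks, so distal peaks were also set against the territory of each gene, the bases nearer to its RefSeq Select TSS than to that of another gene. Mcl1 was the densest, with 25.4 distal peaks per 100 kb in a territory of 31.5 kb, and 0.883% of protein-coding genes were as dense. Bcl2l1 had 19.2 per 100 kb (2.38% of genes) and Bbc3 11.9 (8.78%). Bcl2l11, first by count, had 6.78 per 100 kb in 369 kb, and Bcl2 had 4.08 in 294 kb. Of the rest, Bak1 had 7.13, Bax 6.92, Bid 6.11, Pmaip1 2.81 and Bcl2a1a 1.29. The median over protein-coding genes was 2.16, and Bcl2a1a was the one member below it. Pooled over each class, the density was 6.67 per 100 kb for anti-apoptotic and 5.71 for pro-apoptotic members.

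These densities set peaks named by HOMER against a territory built from RefSeq Select TSSs alone. HOMER also names genes outside that set, such as Mir3473f. When the peaks too were assigned to the nearest RefSeq Select TSS, Bcl2 rose to 11.2 per 100 kb, Bak1 to 17.8, Bax to 13.8, Bid to 11.5, Bcl2l11 to 9.76 and Pmaip1 to 3.87. The other 4 members kept their values, and the median over protein-coding genes was 2.78. Mcl1, with 0.706% of genes as dense, and Bcl2l1 were first in either order. The effectors Bak1 and Bax were then denser than each BH3-only gene. Pooled, the anti-apoptotic and pro-apoptotic classes had 11.3 and 8.62 per 100 kb.

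The base composition of the promoter peaks set Bcl2a1a apart. Its promoter peak had 47.7% G+C and a ratio of observed to expected CpG of 0.213, close to the medians of distal peaks (47.7% and 0.220), and 12.8% of all promoter peaks had a ratio under 0.4. Bak1 was next, with 60.3% and 0.397. The other promoter peaks examined had ratios from 0.634 to 0.956, with the highest in Mcl1 (70.9% G+C) and in the downstream start of Bcl2l11 (75.6% G+C, 0.955), around the median of 0.778 for all promoter peaks. Leaving aside the promoter peak of Bcl2a1a, most distal peaks of the members had less G+C than the promoter peaks. The largest exceptions were at Mcl1 and Bbc3. Distal peaks of Bcl2 (60.9%), Bid (59.1%) and Bcl2l11 (57.5%) also had more G+C than 1 promoter peak of Bcl2l1 (56.3%). The peak over the first exon of Mcl1, 655 bp from the TSS, had a ratio of 0.997, and 3 of the 6 distal peaks of Bbc3 had 70.7 to 74.1% G+C with ratios of 0.801 to 0.818.

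**Figure D4:**
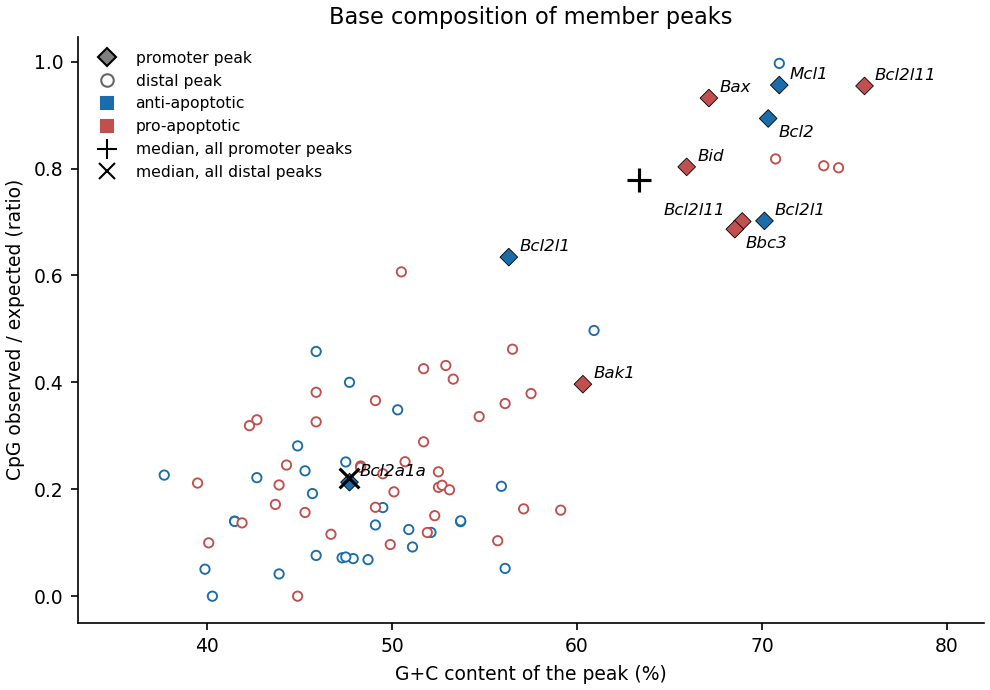
Ratio of observed to expected CpG (y axis) against G+C content in percent (x axis) of each member peak searched, with promoter peaks as diamonds and distal peaks as open circles (blue anti-apoptotic, red pro-apoptotic) and the medians of all promoter (+) and all distal (x) peaks. Bcl2a1a is the promoter peak that lies at the distal median, and Bak1 is the next lowest in CpG.

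Bcl2a1a belongs to a set of near-identical gene copies. The bases of its promoter peak matched those at Bcl2a1b at 98.0% of positions without gaps, with 10 mismatches and an identical run of 207 bases, and those at Bcl2a1c at 95.6%. At Bcl2a1d the ungapped match was 74.4%, with an identical run of 134 bases. The stretch printed above differs from Bcl2a1b at 1 of 110 bases, shown here with that base in capitals, from GRCm38.
Bcl2a1b chr9:89199119-89199228 (+): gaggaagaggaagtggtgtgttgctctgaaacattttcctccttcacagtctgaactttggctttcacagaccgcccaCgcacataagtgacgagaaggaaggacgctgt
The authors left out reads that map to more than 1 place, and reads wholly inside identical runs cannot be placed, so the counts at these copies are uncertain. Bcl2a1b and Bcl2a1d each had 1 promoter peak, with 2 and 1 distal peaks, and Bcl2a1c had neither. The part of unplaced reads in the counts of these genes was not tested.

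Short strings recognised by blood transcription factors were searched on both strands of the 84 member peaks whose sequence was examined, 11 at promoters and 73 distal. A match is a description of the letters and not a bound site. At promoters, the SP/KLF string GGGCGG was in 10 of the 11 peaks, against 75.7% of all promoter peaks, and the Bak1 peak was the one without it. The long ETS string CCGGAAG was in 4, namely both promoter peaks of Bcl2l1, that of Mcl1 and the upstream one of Bcl2l11, against 21.3%. The PU.1 string GAGGAAGT, which contains the short ETS string, was in the 2 promoter peaks with the lowest CpG ratios, those of Bcl2a1a and Bak1, against 4.79% of all promoter peaks. The Bax promoter peak held the NRF1 string CGCATGCG once and the MYC string CACGTG 3 times. Of all promoter peaks, 3.91% held the NRF1 string and 13.8% the MYC string. The FOXO string GTAAACA was in the upstream promoter peak of Bcl2l11, a known target of FOXO factors, and in 3.42% of all promoter peaks.

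At distal peaks, several strings were more frequent in the members than in the list. The AP-1 string TGANTCA was in 22 of 73 (30.1%, Wilson interval 20.8 to 41.4%), against 16.9% of all distal peaks, with 8 of 30 in the anti-apoptotic and 14 of 43 in the pro-apoptotic class. Bcl2l11 held 8 of these 22, and Bax was the member with a distal peak searched that held none. FOXO strings were in 13.7% against 7.25%, and the interval of 7.61 to 23.4% lies just above the value for the list. The E-box CAGGTG was in 43.8% (33.1 to 55.2%) against 32.9%. These are 3 of 21 strings searched, picked out after their shares were seen, and nearby peaks of a gene are not independent of each other.

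The classes differed most for RUNX and SP/KLF. The RUNX string TGTGGTT was in 1 of 30 anti-apoptotic distal peaks (3.33%, 0.591 to 16.7%), the Bcl2l1 peak 2568 bp from the TSS, and in 8 of 43 pro-apoptotic peaks (18.6%, 9.74 to 32.6%), against 18.0% in the list. SP/KLF strings were in 1 of 30 (3.33%) and 10 of 43 (23.3%, 13.2 to 37.7%), against 14.6%, and 6 of these 10 were in Bcl2l11 and 3 in Bbc3. For both strings the intervals of the classes overlap. GATA strings AGATAA were near the list, with 28.8% against 26.9%, and 4 each were in distal peaks of Bcl2 and Bcl2l1 and 8 in those of Bcl2l11. The PU.1 string was in 8 distal peaks, 3 of them at Mcl1 and 3 at Bcl2l11 (8 of 73, against 10.2% of all distal peaks).

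**Figure D5:**
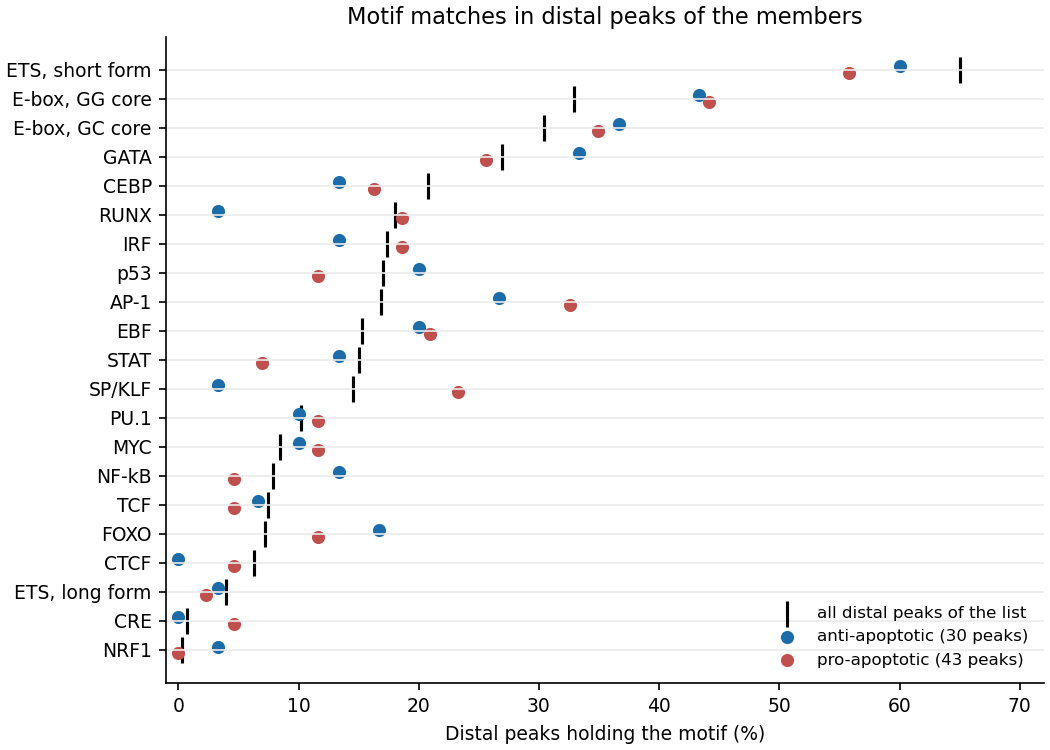
Share of distal peaks (%, x axis) that hold each of the 21 strings, for the anti-apoptotic members (blue, 30 peaks), the pro-apoptotic members (red, 43 peaks) and all distal peaks of the list (black bars). AP-1 and FOXO lie to the right of the black bar in both classes, and RUNX and SP/KLF lie far to the left of it in the anti-apoptotic class.

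The p53 half-site, searched by name as it is written with ambiguous letters, was in 0 of the 11 promoter peaks, against 10.4% of all promoter peaks. With so few peaks, this does not set them apart from the list. Of the 73 distal peaks, 11 held it (15.1%, against 17.1% of all distal peaks). Of these 11, 2 were at Bbc3, at 851 bp upstream and 16825 bp downstream. HOMER annotates the peak 851 bp upstream as promoter, so the 0 at promoter peaks holds for the cut of 500 bp. The others were 3 at Bcl2, 3 at Bcl2l11, 2 at Bcl2l1 and 1 at Mcl1. The distal share does not set the members apart from the list either, and 2 distal peaks, of Bbc3 and Bid, held the CTCF string (2.74%, against 6.29%).

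Other genes of the family and pathway are described by counts. The median over all protein-coding genes was 1 distal peak, and 2 over those with a promoter peak. Medians of the other family lists lay near these values. Of all protein-coding genes, 54.9% had a promoter peak named for them and 60.4% had a peak at an own TSS. Of 4 other anti-apoptotic genes, 3 had a promoter peak, the exception being Bcl2l10, and they had a median of 1.5 distal peaks. Of 5 other pro-apoptotic genes, Bok, Bik and Bmf had a promoter peak named for them. Bmf, a BH3-only gene, had 3 promoter and 8 distal peaks, and Hrk had none of either. The median of the 5 was 1 distal peak. Bad had a peak at an own TSS, although no promoter peak was named for it. Among 5 further BCL2-like genes, Bcl2l14 stood out with 14 distal peaks, and 2 had a promoter peak named for them. Of 12 other genes of the mitochondrial pathway, such as the adaptor Apaf1, the initiator caspase Casp9 and the caspase inhibitor Xiap, 11 had a promoter peak named for them and 12 had one at an own TSS. The exception by name was Cycs, which encodes cytochrome c. They had 36 distal peaks and a median of 3.5, with the most at Apaf1 (8) and Vdac1 (6).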

How the data were processed

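The deposited table was the master peak-list, 84243 peaks of equal width pooled over 12 samples. For this, the authors ran the ENCODE ATAC-seq pipeline against mm10 and discarded reads with several mapping positions. They concatenated the optimal list of each cell type, kept non-overlapping peaks and annotated them with HOMER (4.10.2 in the submitters' processing notes). Starts, ends and distances to the TSS were used in bp as the authors deposited them. The deposited peak score was 0 in every peak and ranked nothing. Depth per sample is therefore unknown.

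Promoter peaks had a centre within 500 bp of a TSS. Genes, exons and sequence came from RefSeq GRCm38.p6, with 1 RefSeq Select TSS per gene for territories. The basal plus extension rule used 2 kb upstream, 1 kb downstream and extension to 1 Mb. The search was tested on simulated data for 10 of the 21 strings, and SP/KLF, the E-boxes, p53 and CTCF were among those not tested. The nearest TSS, the territory and the basal plus extension steps were also tested on simulated data. All 10 members are named, with other family and pathway genes by counts. One listed pathway gene is not reported here. Members and lists were chosen with earlier results of these data known. No test between samples was possible. Values were computed in Python 3.11.15 with pandas 2.3.3, numpy 2.4.6 and matplotlib 3.10.9.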

Additional observations from a re-analysis of the deposited data

How the results depend on the processing

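With a promoter of 100 bp on either side, or of 1000 bp upstream to 100 bp downstream, the 5 promoter peaks of anti-apoptotic members became 3 in both cases. Distal totals of 30 (anti-apoptotic) and 51 (pro-apoptotic) became 51 and 77 by the nearest RefSeq Select TSS, and 80 and 126 under the basal plus extension rule. Limiting the RefSeq Select TSSs to protein-coding genes changed the count of no member, so it does not check the effect of non-coding genes. The pro-apoptotic total became 17 in gene bodies. It was 26 without Bcl2l11, and the anti-apoptotic total was 18 without Bcl2. Named or in the gene body, an alternative chosen after seeing the data, the anti-apoptotic total was 53. The anti-apoptotic median of 8.5 became 15 under the basal plus extension rule, 5.5 with peaks within 2 kb merged and 2.5 with other family genes added. The pro-apoptotic median of 7 became 2.5 in gene bodies, 11 within 50 kb of the TSS, 11.5 under the basal plus extension rule and 4 with other family genes added. The anti-apoptotic density of 6.67 per 100 kb became 11.5 without Bcl2 and, by the nearest RefSeq Select TSS (chosen after seeing the data), 11.3, and the pro-apoptotic density of 5.71 became 8.62. The pro-apoptotic median distance of distal peaks, 25145 bp, became 11424 bp without Bcl2l11 (chosen after seeing the data). Motif matches fell from 301 pairs of peak and string to 174 in the central 200 bp, a construction that searches fewer bases.

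The list has one score of 0 and no values per sample, so a stricter score and leaving out a replicate could not be run. No paired analysis was possible because the result comes from no test. Depth limits every count of peaks by an unknown amount.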
